A study of Mus musculus with 2 samples.

Results

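The 6 genes described here are Mirlet7b, Mirlet7d, Mirlet7e, Mirlet7g, Mirlet7i and Mir98, the let-7 family members that each have a single genomic copy by symbol. They were chosen by gene name, and all 6 were found among the 2202 miRNA genes counted. Small RNA under 30 nt was sequenced from tissue labelled as layer of hippocampus, taken from adult female mice of 8 to 10 months. Both samples carry the strain label 5xFAD/CAST, so the group has no wild-type, untreated or second-age counterpart. The 5xFAD transgenes are driven by the neuronal Thy1 promoter and lead to amyloid plaques, and CAST commonly stands for an inbred strain of the castaneus subspecies. The labels give 2 biological replicates with separate sample records under 1 shared donor entry. No label says whether a sample came from 1 animal or a pool, so the spread between the 2 may be partly technical.

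Let-7 was first known as a timing gene of worm development, and in mammals its members rise as stem and progenitor cells differentiate. A let-7 gene is transcribed as a long primary RNA, cut by Drosha to a hairpin and by Dicer to a short duplex, and usually the 5′ strand (5p) is loaded into Argonaute, where bases 2 to 8, the seed, pair with target mRNAs such as Hmga2, Lin28a and Myc. The RNA-binding proteins Lin28a and Lin28b hold the hairpin's loop and block its maturation in undifferentiated cells. In brain, let-7 is abundant in neurons, and extracellular let-7b has been described as a ligand of Toll-like receptor 7.

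The mature 5p sequences show what the 6 genes share and where they part, and they bear on how a read can be assigned to one of them. All 6 genes matched the RefSeq table of mouse miRNAs (GRCm38.p6), and the sequences below are credited to it, written 5′ to 3′ with the seed in capitals.
let-7g-5p: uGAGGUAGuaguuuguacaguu
let-7b-5p: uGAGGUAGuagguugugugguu
let-7i-5p: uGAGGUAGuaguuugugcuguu
let-7d-5p: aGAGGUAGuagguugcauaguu
let-7e-5p: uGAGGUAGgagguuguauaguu
miR-98-5p: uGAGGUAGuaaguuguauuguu
let-7a-5p, multi-copy relative: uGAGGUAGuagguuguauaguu
let-7c-5p, multi-copy relative: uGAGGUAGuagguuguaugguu

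All 6 sequences were 22 bases long and had the same seed. They were identical at 14 of 22 positions, and any pair of them differed at 2 to 6 positions. Counted from 1 at the 5′ end and with the let-7a-5p base first, let-7e-5p differed from let-7a-5p by U9G alone. Let-7b-5p differed by A17G and A19G, let-7d-5p by U1A and U16C, let-7g-5p by G12U and U18C, and miR-98-5p by G11A and A19U. Let-7i-5p was the farthest from let-7a-5p, with G12U, A17G, U18C and A19U.

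Each member's 5p sequence occurred in 1 of the 1005 hairpins of the table, its own, while that of let-7a, let-7c or let-7f occurred in 2. Let-7b-5p was 1 mismatch away from let-7c-5p, and the pair shared their first 16 bases. Let-7g-5p and let-7i-5p also shared their first 16 bases. A start of 17 bases was needed before let-7b-5p, let-7g-5p, let-7i-5p or let-7e-5p was found in no other hairpin, against 11 for miR-98-5p and 9 for let-7d-5p. The number for let-7e-5p came from Mir7k, a gene outside the 12 let-7 genes whose mature let-7k opens with the same 16 bases.

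Among the 1738 mature sequences of the table, 13 carried the seed. In the count tables, the genes with this seed outside the let-7 genes and Mir98 were close to empty. Mir7k had 2 counts in replicate 1 and 1 in replicate 2, and Mir1961 had 0 in both, which allows up to 0.957 CPM and 0.685 CPM (3 counts per library).

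The stretch between the arms, which holds the terminal loop, was compared because Lin28 proteins bind a GGAG motif there. It was compared in the 5 let-7 genes other than Mir98. The motif was searched on the RNA strand only and is in capitals.
Mirlet7g: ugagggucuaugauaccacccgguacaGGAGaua
Mirlet7b: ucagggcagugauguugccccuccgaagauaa
Mirlet7i: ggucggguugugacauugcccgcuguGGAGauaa
Mirlet7d: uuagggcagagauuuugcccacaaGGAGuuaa
Mirlet7e: gaggaagacacccgaGGAGauca
These 5 stretches were 23 to 34 bases long, against a median of 16 over 644 hairpins with both arms in the table. GGAG was present in 4 of the 5, ending 3 bases before the 3p arm in Mirlet7g and 4 bases before it in Mirlet7d, Mirlet7e and Mirlet7i. The letters were not found in the stretch of Mirlet7b. For comparison, 8.07% of the 644 hairpins held GGAG between the arms, and 25.0% of the 52 whose stretch was 23 to 34 bases. Let-7 genes were 10 of those 52, and 5 of the other 42 (11.9%) held it. The multi-copy let-7 genes with both arms in the table held it in 4 of 5, so the motif is not particular to the single-copy genes. These matches are descriptions of sequence. Lin28a and Lin28b are protein-coding and were not measured.

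Replicate 1 held 9962659 reads and replicate 2 held 12761689, and the sense counts over all miRNA genes were 3135960 and 4377622. Unmapped reads were 26.5% and 18.1%, and multimapping reads, which stand outside the gene counts, 36.3% and 41.7%. Levels below are those counts scaled to 1e6 per library (CPM), with no division by gene length, as a small-RNA read spans the mature miRNA. One count was worth 0.319 CPM in replicate 1 and 0.228 CPM in replicate 2, so counting error was small for all 6 genes. PCR copies of 1 molecule count as separate reads, so the intervals given cover counting error only. Markers of brain cells were present. At least 10 counts in each library were found for 10 of 14 neuronal genes and for all 3 oligodendrocyte and 4 microglial and myeloid genes. The summed shares of the 14 neuronal genes were 3.63% and 3.47%. The classic neuronal genes Mir124a-1, Mir124a-2 and Mir124a-3, copies of 1 miRNA, had 8 counts or fewer. The list holds several copies of some miRNAs, and reads that fit more than 1 copy stand outside these counts and sums. Mir1a-1, Mir1a-2, Mir133a-1 and Mir133a-2 of striated muscle had 0 counts, while Mir206 of the same list had 26.5 and 22.6 CPM, and Mir122 of liver had 28.4 and 38.4 CPM.

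Together the 6 genes supplied a large part of all miRNA gene counts in each library. Their share was 37.9% in replicate 1 (exact Clopper-Pearson 95% interval 37.8% to 37.9%) and 34.9% in replicate 2 (34.9% to 35.0%), or 36.4% ± 2.07 (SD, n = 2). Of all reads, mapped or not, they were 11.9% and 12.0%, so replicate 1 was the higher library by the first measure and the lower by the second. The 6 multi-copy genes, Mirlet7a-1, Mirlet7a-2, Mirlet7c-1, Mirlet7c-2, Mirlet7f-1 and Mirlet7f-2, held 0.591% ± 0.0850 (SD, n = 2), so that 98.3% and 98.5% of the counts of all 12 genes lay in the single-copy ones. Reads that fit several copies stand outside the gene counts, and the ratio is therefore one of assigned counts, not of molecules.

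Mirlet7g was at 123299 CPM in replicate 1 and 117408 CPM in replicate 2. It ranked first of 2202 genes in both libraries and supplied 12.3% (exact 95% interval 12.3% to 12.4%) and 11.7% (11.7% to 11.8%) of the counts. Its mean was 120353 ± 4166 CPM (SD, n = 2), a coefficient of variation of 3.46%, the lowest of the 6. Multimapping reads stand outside the counts, so ranks and shares here and below are of assigned counts, not of molecules.

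Mirlet7b was at 108836 and 115778 CPM, rank 2 in both libraries, with a mean of 112307 ± 4909 CPM (SD, n = 2). It was higher in replicate 2, where Mirlet7g was lower, and the lead of Mirlet7g was 1.13-fold in replicate 1 and 1.01-fold in replicate 2. Mirlet7g was thus the higher in both libraries, and the ranges of the library values of the 2 genes did not overlap. Their mean ± SD ranges did overlap, and 2 libraries are too few to say whether the pair differs. Mirlet7g and Mirlet7b together made up 61.3% and 66.7% of the counts of the 6 genes.

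Mirlet7i was at 60060 and 52981 CPM, rank 5 in both libraries, with a mean of 56521 ± 5006 CPM (SD, n = 2). The step from Mirlet7b down to Mirlet7i was 1.81-fold in replicate 1 and 2.19-fold in replicate 2, larger than either gene's SD. In ranks between them stood Mir744 and Mir139, of other families.

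Mirlet7d had the widest spread of the 6. It was at 49018 CPM in replicate 1 and 23955 CPM in replicate 2, ranks 6 and 8 among all genes, and its mean of 36486 CPM had an SD of 17722 (n = 2), a coefficient of variation of 48.6%. Mirlet7e, by contrast, was at 30892 and 33661 CPM, ranks 7 and 6, with a mean of 32276 ± 1957 CPM (SD, n = 2). Mirlet7d was therefore 1.59-fold above Mirlet7e in replicate 1 and lay below it in replicate 2, at 0.712 of its level. The order of these neighbours differed between the libraries. Mirlet7i was above Mirlet7d in both, by 1.23-fold and 2.21-fold, but the mean ± SD ranges of the pair overlapped.

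Mir98, the family member with another number in its name, was the least abundant at 6523 and 5629 CPM, with ranks 29 and 33 and a mean of 6076 ± 632 CPM (SD, n = 2). It lay below Mirlet7e by 4.74-fold and 5.98-fold, a step larger than either SD. From Mirlet7g to Mir98 the levels spanned 18.9-fold in replicate 1 and 20.9-fold in replicate 2. Even at this lowest level Mir98 had 20455 and 24641 counts.

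**Figure D1:**
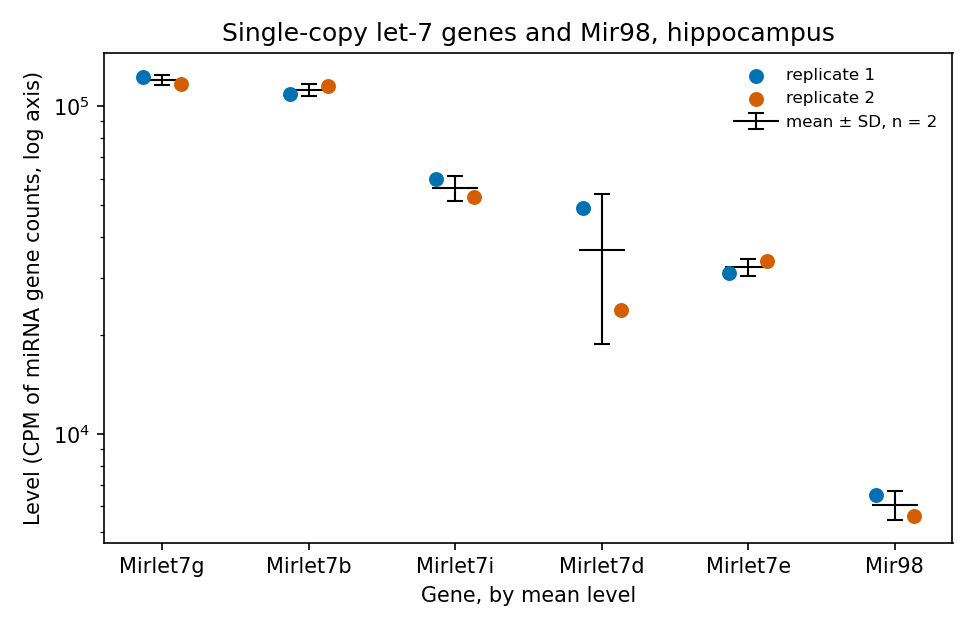
Levels of the 6 genes in CPM of miRNA gene counts on a log axis, ordered by mean level, with points for replicates 1 and 2 and bars for the mean ± SD (n = 2). Mirlet7d runs from 23955 to 49018 CPM and crosses the level of Mirlet7e, while the points of the other genes lie close together.

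Within the 6 genes, the shares that differed most between libraries in percentage points were those of Mirlet7d and Mirlet7b. Mirlet7d made up 12.9% of the counts of the 6 in replicate 1 and 6.86% in replicate 2. Mirlet7b made up 28.7% and 33.1%. Shares of a fixed total move together, so part of this shift goes with that of Mirlet7d, and the CPM of Mirlet7b had a ratio of 0.940. Mirlet7g was at 32.6% and 33.6%, Mirlet7i at 15.9% and 15.2%, Mirlet7e at 8.16% and 9.63%, and Mir98 at 1.72% and 1.61%. Without Mirlet7d, the other 5 genes held 33.0% and 32.5% of all miRNA gene counts, against 37.9% and 34.9% for all 6.

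**Figure D2:**
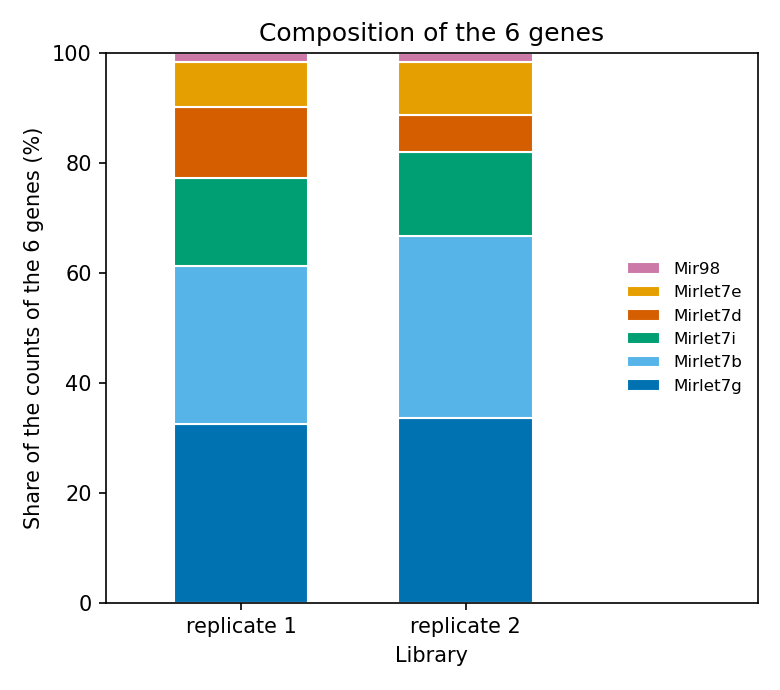
Stacked bars from 0 to 100% with each gene's share of the summed counts of the 6 genes, 1 bar per library. The Mirlet7d segment is 12.9% in replicate 1 and 6.86% in replicate 2, and the Mirlet7b segment is 28.7% and 33.1%.

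Between the libraries, 1 of the 6 genes, Mirlet7d, differed by more than 1.5-fold, the size used here to call a difference. Among the 384 genes with at least 10 counts in each library, 27.6% did, and among the 30 genes with a mean level at or above that of Mir98, 30.0% did. At 2-fold, Mirlet7d was again the 1 gene of the 6 past it, beside 12.2% of the 384. With all reads as the total its ratio was 1.88, short of 2-fold. The count of 1 in 6 is below the shares at 1.5-fold, and 6 genes are too few to tell it apart from them. Among the 9 genes with a mean above 20000 CPM, which hold all of the 6 but Mir98, 1 was past 1.5-fold, Mirlet7d itself. Mirlet7d in replicate 1 was 2.05-fold its level in replicate 2 (exact binomial 95% interval 2.03 to 2.06). By size of the ratio it exceeded 342 of the 384 genes, or 89.1%. This comparison is between 2 libraries of 1 group, so it carries no p-value for a condition.

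The other 5 genes had ratios nearer 1 than the median gene, whose libraries differed by 1.29-fold. Replicate 1 over replicate 2 was 1.05 for Mirlet7g (exact binomial 95% interval 1.05 to 1.05), 1.13 for Mirlet7i (1.13 to 1.14) and 1.16 for Mir98 (1.14 to 1.18). It was 0.940 for Mirlet7b (0.936 to 0.944) and 0.918 for Mirlet7e (0.910 to 0.925). Each interval left out 1, so these small ratios were larger than counting error. They also moved with the scaling: over TMM factors, DESeq2 size factors, all reads as the total and counts without regard to strand, the ratio of Mirlet7g ran from 0.964 to 1.09 and changed side. The ratios kept their side for Mirlet7i (1.04 to 1.18), Mir98 (1.06 to 1.20), Mirlet7b (0.863 to 0.977) and Mirlet7d (1.88 to 2.13). The ratio of Mirlet7e (0.842 to 0.954) kept its side over the scalings, but it had 0 counts without regard to strand and so no ratio there.

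Some other measures differed between the libraries together with Mirlet7d, and others differed little. All 5 epithelial markers (Mir200a, Mir200b, Mir200c, Mir141 and Mir429) were higher in replicate 1, with summed levels of 434 and 119 CPM. The choroid plexus and ciliated cell markers had 4 of 6 genes higher in replicate 1, with sums of 2993 and 1095 CPM. Mir34c, at 1747 and 292 CPM, and Mir204, at 1148 and 744 CPM, held most of these sums. Mir449c had 0 counts in replicate 1 and 1 in replicate 2, and Mir449b had 0 in both. Of the 3 genes listed for astrocytes, Mir21a (5176 and 1686 CPM) and Mir31 (1016 and 381 CPM) were higher in replicate 1, and Mir193a (45.0 and 58.0 CPM) was lower. Their sums of 6238 and 2125 CPM were mostly Mir21a, so they are not read as a measure of astrocytes. Mir126a of endothelium went the other way, at 12521 and 22475 CPM. Both smooth muscle and pericyte genes were higher in replicate 1, with sums of 8170 and 6864 CPM. Sums were closer for oligodendrocytes (6799 and 6685 CPM), microglia and myeloid cells (1881 and 2111 CPM) and red blood cells (70.2 and 78.4 CPM). The 14 neuronal markers gave no single direction, with summed levels of 36260 and 34652 CPM. Of these, 10 were lower in replicate 1, including Mir124a-1, Mir124a-2 and Mir124a-3 with at most 8 counts in either library, while Mir132 stood at 21687 and 13106 CPM. The part of these differences, and of the unmapped share of 26.5% against 18.1%, in the level of Mirlet7d was not tested. In whole tissue, fewer cells of a type and less RNA per cell cannot be told apart.

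**Figure D3:**
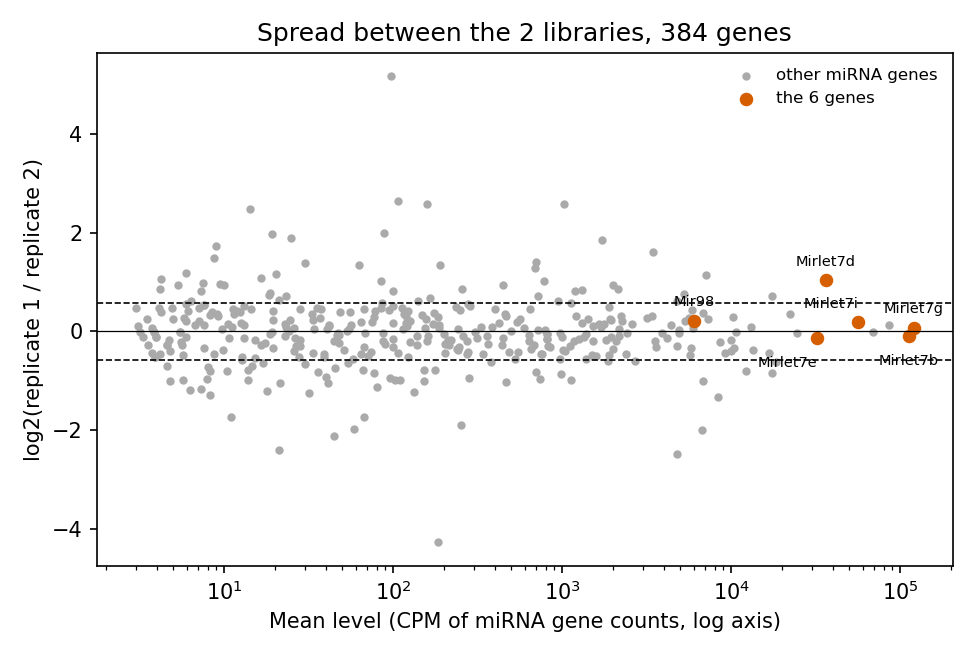
Each point is 1 of the 384 genes with at least 10 counts in both libraries, with mean level in CPM on a log axis and log2 of replicate 1 over replicate 2 on the other. Dashed lines mark 1.5-fold; Mirlet7d lies above the upper line at 1.03 and the other 5 genes lie between the lines.

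The 6 genes lie on 6 chromosomes, 4 of them beside other miRNA genes, and all within a longer annotated gene on their own strand (mm10, GENCODE M21). Hosts were protein-coding for 3, long non-coding genes for 2 and a pseudogene for 1. Host transcripts were not measured, since miRNA genes alone were counted.

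Mirlet7g (ENSMUSG00000065440.1, chr9:106178840-106178927, plus strand) lies in an intron of 5 of the 6 transcripts of Wdr82, a subunit of the complexes that methylate histone H3 at lysine 4. No other miRNA gene was annotated within 10000 bp on its strand. Mirlet7i (ENSMUSG00000065406.3, chr10:122985640-122985724, minus strand) also has no such neighbour. It lies within D630033A02Rik, a transcribed processed pseudogene with 2 transcripts, overlapping an exon of 1 and lying in an intron of the other. These 2 genes that stand alone had ratios of 1.05 and 1.13 between libraries.

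Mirlet7d (ENSMUSG00000065453.1, chr13:48536012-48536114, minus strand) overlaps an exon of 6720427I07Rik, which is annotated as a long intergenic non-coding RNA. Mirlet7f-1 is 1714 bp and Mirlet7a-1 is 2064 bp away on the same strand. Both neighbours were also higher in replicate 1, Mirlet7a-1 at 331 and 227 CPM (ratio 1.46, exact binomial 95% interval 1.34 to 1.60) and Mirlet7f-1 at 276 and 197 CPM (1.40, 1.27 to 1.54). That side was not particular to the cluster: all 6 multi-copy let-7 genes were higher in replicate 1, among them Mirlet7a-2 on chromosome 9 at 203 and 127 CPM (ratio 1.61, exact binomial 95% interval 1.43 to 1.80). Reads that fit further copies of let-7a or let-7f stand outside the counts of both neighbours.

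Mirlet7e (ENSMUSG00000105758.1, chr17:17830352-17830444, plus strand) lies in an intron of 2 of the 16 transcripts of Spaca6, a gene needed for fusion of sperm and egg, between Mir99b, 94 bp away, and Mir125a, 367 bp away. Mir125a is a relative of lin-4, the other timing miRNA of the worm. Mirlet7e and its neighbours had unlike ratios between the libraries. Mir99b was at 2703 CPM in replicate 1 and 10743 CPM in replicate 2, a ratio of 0.252 (exact binomial 95% interval 0.246 to 0.257), and Mir125a at 8971 and 15538 CPM, a ratio of 0.577 (0.569 to 0.585), against 0.918 for Mirlet7e. The level of Mirlet7e was 11.4-fold that of Mir99b in replicate 1 and 3.13-fold in replicate 2. Against Mir125a it was 3.44-fold and 2.17-fold.

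Mirlet7b (ENSMUSG00000065564.1, chr15:85707319-85707403, plus strand) overlaps an exon of 1 of 2 transcripts of the non-coding gene Lncppara and is 621 bp from Mirlet7c-2. Mirlet7c-2 was at 1381 and 1228 CPM, a ratio of 1.13 (exact binomial 95% interval 1.08 to 1.17), on the other side of 1 from the 0.940 of Mirlet7b. Mir98 (ENSMUSG00000065536.2, chrX:151913214-151913321, plus strand) lies in an intron of 2 of 23 transcripts of Huwe1, which encodes a ubiquitin ligase, 785 bp from Mirlet7f-2. Mirlet7f-2 was at 3742 and 3025 CPM, the highest of the multi-copy genes, and its ratio of 1.24 (1.21 to 1.27) was on the same side as the 1.16 of Mir98. In assigned counts Mir98 was 1.74-fold and 1.86-fold its neighbour. As for let-7a, reads that fit further copies of let-7c or let-7f stand outside the counts of Mirlet7c-2 and Mirlet7f-2.

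**Figure D4:**
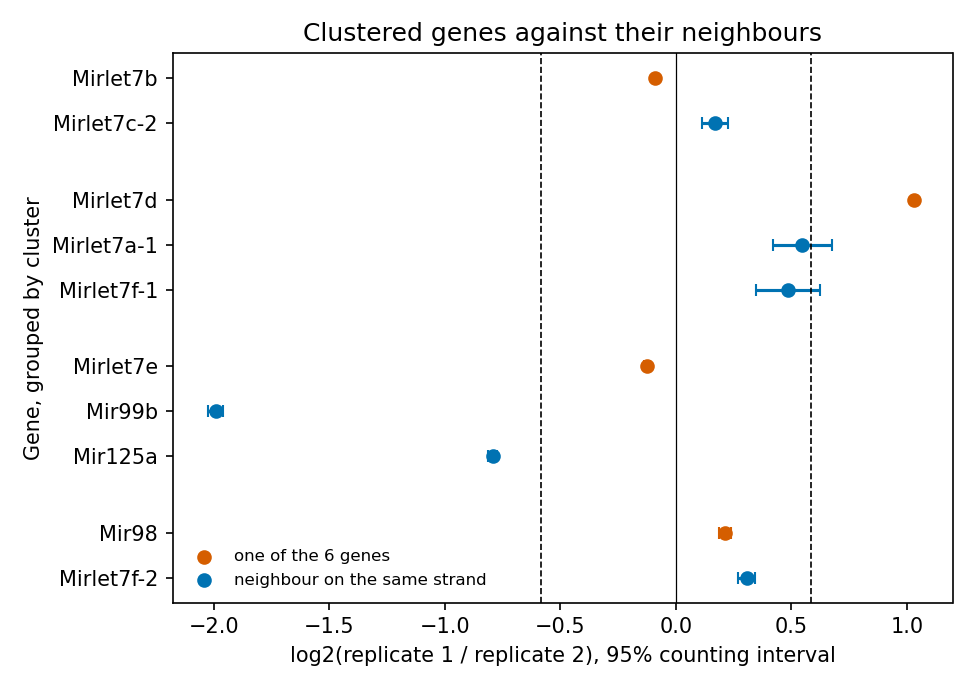
Log2 of replicate 1 over replicate 2 for the 4 clustered genes and for their same-strand neighbours within 10000 bp, with exact binomial 95% intervals and dashed lines at 1.5-fold. Mir99b (ratio 0.252) and Mir125a (0.577) lie left of the lower line while Mirlet7e lies near 0, and Mirlet7d lies right of the upper line.

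Strand mattered for 1 of the 6 genes. Gm25927, an annotated miRNA gene on the minus strand, covers the whole of Mirlet7e. Counted on its own strand Mirlet7e had 96877 and 147353 counts, and Gm25927 had 0 in both libraries, which allows up to 0.957 and 0.685 CPM. Counted without regard to strand, Mirlet7e had 0 counts in both. The other 5 genes had the same counts both ways, apart from 4 counts of Mirlet7b and 2 of Mir98 on the other strand in replicate 2.

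The non-member gene nearest to each of the 6 by level in both libraries was found by the distance in log2(CPM + 1), over 2 libraries only, so it is a likeness of level. Mir744 was nearest to Mirlet7g (distance 0.69) and to Mirlet7b (0.57), at 89640 and 82134 CPM. Mir139, from an intron of Pde2a, was nearest to Mirlet7i (0.44) at 68809 and 69347 CPM. Mir127, an imprinted miRNA, was nearest to Mirlet7e (0.56) and to Mirlet7d (1.01), at 24284 and 24896 CPM. Mir324 was nearest to Mir98 (0.11) at 6105 and 5850 CPM. The distance was widest for Mirlet7d.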

How the data were processed

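The authors deposited 1 table of raw read counts per library, not normalized, with 4 summary lines, 2202 miRNA genes and 3 count columns. The build (mm10) and annotation (M21) are named in the deposited notes. No source used here names the aligner, counter or adapter trimming. The columns were taken as unstranded, sense and other-strand counts from their totals, with 93.4% and 91.9% of the strand-specific counts in the sense column, which was used. A read on overlapping genes can stand in both columns: the 96877 and 147353 sense counts of Mirlet7e recur as other-strand counts of Gm25927. These percents therefore do not give the share of reads on the other strand. Summary lines were kept out of the totals. A gene's count adds both hairpin arms. The sequence between the arms of Mir98 is not reported here. Mapping was to the reference genome, and an effect of CAST variants was not tested.

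All 2202 identifiers matched GENCODE M21. CPM, shares, exact binomial intervals and ratios were computed in Python 3.11.15 with numpy 2.4.6, scipy 1.17.1 and pandas 2.3.3, and scaling factors with edgeR 4.0.16 (TMM, 0.992 and 1.01) and DESeq2 1.42.0 in R 4.3.3. With 1 group, no contrast was tested. A gene with 10 counts in each library was called detected. The members, marker lists and tests were chosen with earlier results of these data known. Genes were named by rule: the 6 genes, multi-copy let-7 genes, neighbours within 10000 bp or on the other strand, hosts, genes of the same seed, and the gene nearest in log2(CPM + 1) to each of the 6, and its neighbours in rank. Alternatives covered strand, scaling, total, fold, count minimum and each replicate left out.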

Additional observations from a re-analysis of the deposited data

Results flagged for a closer look

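Mirlet7b had 4 counts on the other strand in replicate 2, in a column that the levels do not use, which is above the 3 counts that a count of 0 allows. It had 0 there in replicate 1. On its own strand it had 506833 counts in replicate 2.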

How the results depend on the processing

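The summed share of the 6 genes was 36.4% of the miRNA gene counts and ran from 34.9% without replicate 1 to 37.9% without replicate 2. With all reads of the library as the total it was 12.0%, by construction, since unmapped, multimapping and other reads enter that total. It stayed within 1 SD without the multi-copy let-7 genes in the total (36.6%). With counts taken without regard to strand the share was 36.0%, also within 1 SD. There Mirlet7e had 0 counts, so that share came from 5 genes, over a total that leaves out reads ambiguous between overlapping genes. The count of genes past the fold was 1, Mirlet7d, under TMM factors, DESeq2 size factors, all reads, 2-fold, and a fold midway between 1 and 1.5. Each setting was changed alone, and by all reads the ratio of Mirlet7d was 1.88, short of 2-fold. The count was also 1 with unstranded counts, where Mirlet7e had 0 counts and only 5 genes had a ratio. The order of the 6 means was the same under the 4 scalings. Of all genes, 106 of 384 were past 1.5-fold, against 243 of 604 at a minimum of 1 count and 57 of 252 at 100. It was 9 of the 30 genes at or above the level of Mir98, an alternative chosen after seeing the data. No paired analysis was possible because the series has 1 group. Depth did not limit these genes; 2 libraries did.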
